A study of Macrobrachium rosenbergii with 9 samples.

Results

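A small group of 36 transcripts, out of 21071 measured in the giant freshwater prawn Macrobrachium rosenbergii, was present at similar levels in ovary and testis and was almost missing from the androgenic gland. Members were chosen on CPM, a transcript’s count divided by the library total and multiplied by 1000000. A member had at least 25 CPM in each of the 6 gonad libraries and at most 1 CPM in each of the 3 gland libraries, and its mean CPM in ovary was less than 4-fold above and less than 4-fold below its mean in testis. Of all transcripts, 2590 reached 25 CPM in every gonad library, 2414 of these also kept within the 4-fold limits, and 36 of those met the gland limit. The values of all 9 libraries thus chose the members, so their levels, and the calls of a fit over all transcripts where these are given, only describe them and test nothing. The libraries came from adults of the strain labelled CMr1, with 3 from the androgenic gland of males, 3 from the ovary of females and 3 from the testis of males. By its title the study looked at transcription factors and sex determination in adult gonads.

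Ovary and testis both hold germ cells, which divide by meiosis and keep their RNA under tight post-transcriptional control, together with somatic support cells. The androgenic gland is a male endocrine organ of decapod crustaceans that lies beside the sperm duct and secretes an insulin-like hormone that drives male differentiation. It holds no germ line. The IDs do not say what the members encode: 0 of the 21071 IDs matched any of 31758 genes in the reference table used, so the members carry no gene name or function here, and tissue markers could not be looked up. Each member is therefore described by its length and by the word Female or Male in its ID, called its sex label below, which the sources used here do not explain. More than 1 transcript may belong to a gene. In whole-tissue RNA, fewer cells of a type and less RNA per cell cannot be told apart.

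Library totals were 10409895 to 11177153 counts in gland, 9924471 to 11231573 in ovary and 7142794 to 9868078 in testis. The gonad limit of 25 CPM thus stood for 179 to 281 counts, and the gland limit of 1 CPM for 10.41 to 11.18 counts. The labels do not state whether the 3 libraries of each tissue are from different animals, so their spread may be technical. In testis 2, 21.7% of tested transcripts lay under 0.5 of the mean of testis 1 and 3. This share was not computed for testis 1 or testis 3. Among tested transcripts the median log2 ratio to the mean of the other testis libraries was -0.17 for testis 2. For testis 1 it was -0.22, and for testis 3 it was 0.27. The selection was repeated without each library in turn. All 36 members had enough counts to be tested with the other transcripts, of which 17043 were tested in all.

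In the androgenic gland the members were close to undetected. They held 79.1, 36.5 and 61.8 estimated counts in all in gland 1 to 3, against 26567, 32787 and 30882 in ovary 1 to 3 and 26583, 24730 and 22721 in testis 1 to 3. As a share of the library this was 0.000538% ± 0.000179 in gland, 0.288% ± 0.0186 in ovary and 0.290% ± 0.0351 in testis (SD, n = 3 each). The gland libraries lay far below all gonad libraries, and the ovary and testis libraries overlapped. Testis 2 had the lowest share of the gonad libraries at 0.251% (95% Wilson interval 0.248% to 0.254%, counting error only). The selection limited the difference between the gonads, so this likeness is in part fixed by it.

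**Figure D1:**
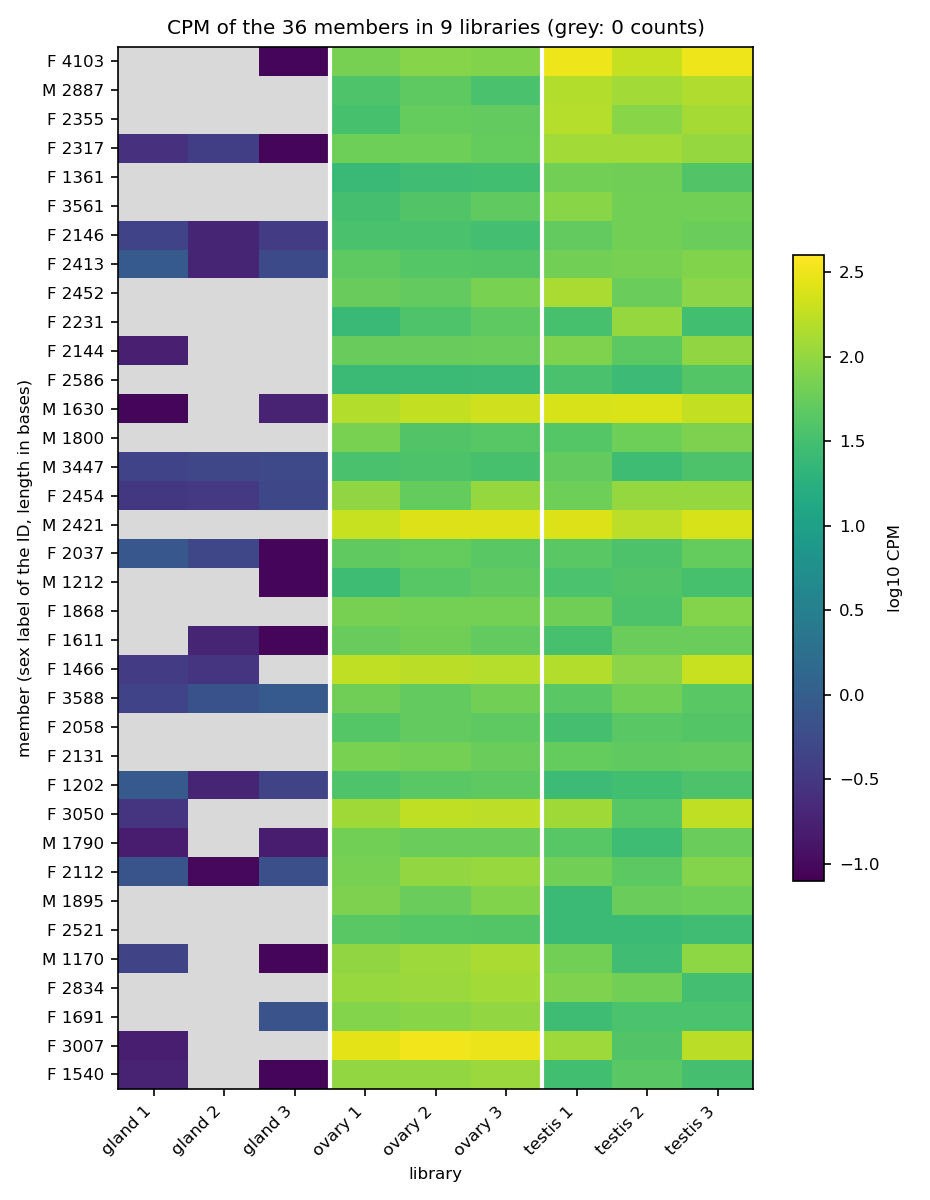
CPM of each member (rows, named by the sex label F or M and the length in bases) in each of the 9 libraries (columns), as log10 CPM in colour with 0 counts in grey. Rows run from the lowest ratio of ovary to testis at the top to the highest at the bottom. The gland columns are grey or dark for all 36 members, and 15 rows are grey in all 3 of them.

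Of the 36 members, 15 had 0 counts in every gland library, which compares with 16.7% of all tested transcripts at 0 in gland. A further 6 had counts in 1 gland library, 6 in 2 and 9 in all 3. The gland limit of the selection raised the share of members at 0, so nothing is read from its distance to 16.7%. For the 15 at 0, a floor of 3 counts over the tissue (0.0917 CPM) was set on library totals. On that scale the gland was at least 291-fold to at least 2556-fold lower than ovary. Against testis it was at least 297-fold to at least 2375-fold lower. The scaling factors of the edgeR fit were 0.382 to 0.578 in gland and 1.24 to 1.59 in the gonads. On the scale of that fit these bounds are smaller. Most of the remaining gland counts sat in few members: 8 members with 10 or more counts held 71.7% of them. The female label transcript of 3588 bases had the most, with 5, 7 and 10 counts in gland 1 to 3, or up to 0.899 CPM. Gland values were spread over the libraries, with 17, 11 and 17 members having any count in gland 1 to 3. In edgeR's quasi-likelihood test over all transcripts, all 36 members were called lower in gland than in ovary, against 39.4% of tested transcripts, and all 36 were called lower in gland than in testis, against 26.9%. None was called higher in gland than in ovary, against 20.1%, or than in testis, against 16%. The selection used these contrasts, so nothing is read from the counts.

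Such a gland level was rare among transcripts that both gonads shared. Of the 2414 transcripts with the same gonad criteria, 17.3% had a gland mean above 100 CPM, 35.5% one above 25 and up to 100 CPM, and 1.53% one above 0 and up to 1 CPM. All 15 transcripts with a gland mean of 0 were members, as were 21 of the 37 with a mean above 0 and up to 1 CPM. The other 16 of these passed 1 CPM in at least 1 gland library. The step just above, from 1 to 5 CPM, already held 235 transcripts.

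**Figure D2:**
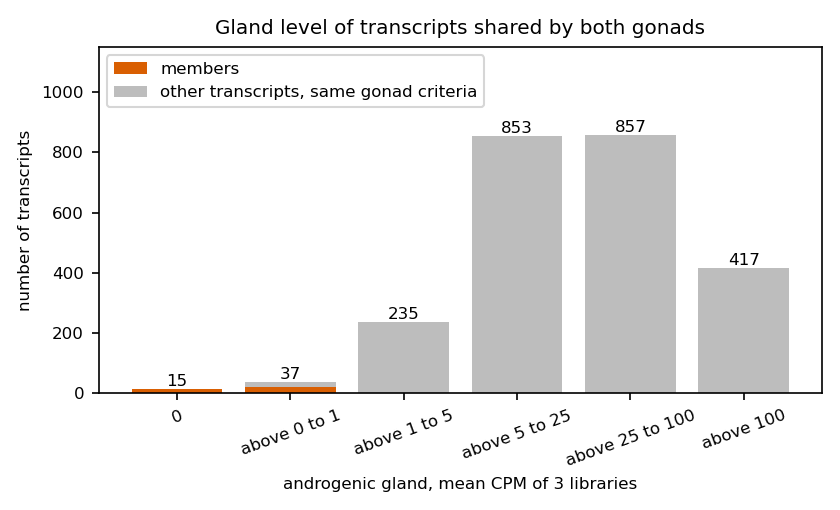
Number of transcripts (vertical axis) by mean androgenic gland CPM over 3 libraries (horizontal axis) among the 2414 transcripts with the members' ovary and testis criteria. Members, in orange, fill the class at 0 and 21 of the 37 transcripts above 0 and up to 1 CPM, while 853 and 857 transcripts lie above 5 to 25 and above 25 to 100 CPM.

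Between the gonads the members ranged widely within the limits that chose them. The log2 ratio of mean CPM in ovary over mean CPM in testis ran from -1.82 to 1.54 with a median of 0.13, beside a median of 0.03 over the 2414 transcripts with the same gonad criteria and 0.14 over the 15731 tested transcripts with counts in both gonads. In 30 of the 36 members (83.3%) the gonad means were within 2-fold of each other, against 74.8% of the 2414. By mean CPM 20 members were higher in ovary and 16 lower. With edgeR's trimmed-mean (TMM) scaling, which sets each library against the bulk of transcripts and not its total, 17 had a fitted log2 fold change above 0 and 19 below, so this balance depends on the scaling. The ovary and testis values overlapped for 19 members. They lay apart with ovary higher for 8 members (22.2%, against 37.9% of tested transcripts) and with ovary lower for 9 (25%, against 24.2%).

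**Figure D3:**
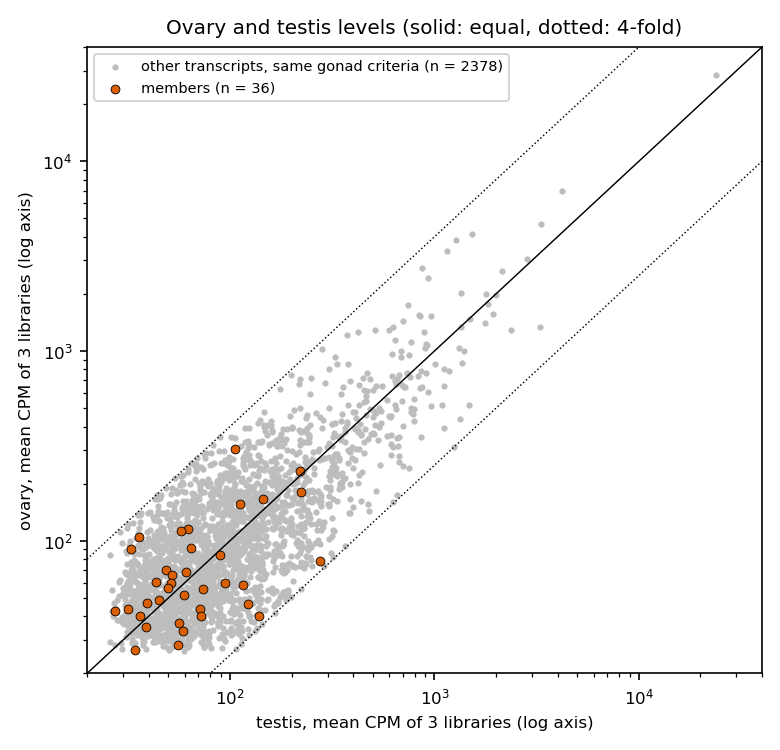
Mean CPM over 3 libraries in ovary (vertical, log axis) against testis (horizontal, log axis) for the 36 members (orange) and the other 2378 transcripts with the same gonad criteria (grey). The members spread on both sides of the line of equal levels, and 24 of them are under 100 CPM in both gonads.

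The members furthest toward ovary were transcript_HQ_Female_transcript11658/f13p0/1540 and transcript_HQ_Female_transcript1241/f13p0/3006. The transcript of 1540 bases had 99.5, 101.5 and 112 CPM in ovary 1 to 3, against 29.8, 45.7 and 31.9 CPM in testis 1 to 3. All ovary values lay above all testis values, and the means were 104 ± 6.57 CPM in ovary and 35.8 ± 8.63 CPM in testis (SD, n = 3 each), a log2 ratio of 1.54. The transcript of 3007 bases had 279, 331 and 306 CPM in ovary 1 to 3, against 114, 39.7 and 163 CPM in testis 1 to 3. Its gonads did not overlap either, but the testis values were wide apart, with a log2 ratio of 1.54. Its fitted log2 fold change was 1.41 with all libraries and 1.03 without testis 2.

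The members furthest toward testis were transcript_HQ_Female_transcript95/f2p0/4103, the longest member, and transcript_HQ_Male_transcript985/f5p0/2887. The female label transcript of 4103 bases had 70.3, 85.2 and 79.5 CPM in ovary 1 to 3, against 319.7, 189 and 321 CPM in testis 1 to 3, with means of 78.3 ± 7.50 CPM in ovary and 277 ± 75.9 CPM in testis (SD, n = 3 each) and a log2 ratio of -1.82. The male label transcript of 2887 bases had 38.0, 48.3 and 34.6 CPM in ovary 1 to 3, against 149.9, 123 and 145 CPM in testis 1 to 3, a log2 ratio of -1.79. In both transcripts every testis value lay above every ovary value. Both were near absence in gland, with 1 count over the 3 libraries for the first and 0 for the second. Their sex labels differ, and both were called lower in ovary.

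The other 4 members called lower in ovary were female label transcripts. The transcript of 2355 bases had 33.8, 54.0 and 51.03 CPM in ovary 1 to 3, against 155, 87.3 and 126 CPM in testis 1 to 3. The transcript of 2317 bases had 61.7, 59.9 and 53.5 CPM in ovary 1 to 3, against 122, 122 and 103 CPM in testis 1 to 3. Both were lower in every ovary library than in any testis library, by a log2 ratio of -1.41 and -0.99, and the first had 0 counts in gland while the second had 3, 4 and 1. The transcript of 1361 bases had 25.9, 28.9 and 29.8 CPM in ovary 1 to 3, against 65.0, 62.5 and 39.9 CPM in testis 1 to 3. The transcript of 3561 bases had 32.4, 38.9 and 49.7 CPM in ovary 1 to 3, against 86.6, 64.1 and 65.5 CPM in testis 1 to 3. Again no values overlapped, and both had 0 counts in gland.

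Toward ovary, 6 further members had all ovary values above all testis values, and none of them was called. The widest was the female label transcript of 1691 bases, with 81.0, 88.4 and 101 CPM in ovary 1 to 3, against 28.0, 35.1 and 35.3 CPM in testis 1 to 3. Its log2 ratio was 1.46 and its fitted log2 fold change 1.29. Its gland counts all came from gland 3, with 7.69 there and 0 in gland 1 and gland 2. The male label transcript of 1170 bases, the shortest member, had 96.4, 115 and 136 CPM in ovary 1 to 3, against 64.3, 29.1 and 93.6 CPM in testis 1 to 3. Its lowest ovary value was just above its highest testis value. The female label transcript of 2521 bases had 45.7, 41.6 and 40.7 CPM in ovary 1 to 3, against 26.6, 26.2 and 29.2 CPM in testis 1 to 3. It varied by 6.27% in ovary and 5.91% in testis, so a log2 ratio of 0.64 was wide against its spread, and all its testis values lay close to the limit of 25 CPM.

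Among the 19 members whose gonads overlapped, the log2 ratio lay between -0.67 and 0.52. The female label transcript of 2037 bases had 49.0, 53.0 and 44.6 CPM in ovary 1 to 3, against 44.9, 36.6 and 52.7 CPM in testis 1 to 3. The male label transcript of 1212 bases had 27.9, 42.8 and 49.1 CPM in ovary 1 to 3, against 35.5, 39.9 and 33.2 CPM in testis 1 to 3. For both, neither gonad was consistently above the other, and the fitted log2 fold change was -0.03 for the first and -0.04 for the second.

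Called at an adjusted p under 0.05 and a change of at least 2-fold, edgeR put 1 member higher in ovary than in testis, against 26.5% of tested transcripts, and 6 lower, against 19.6%. The 1 higher member was the transcript of 1540 bases, and the 6 lower ones are those described above. The 4-fold limits of the selection bear on this contrast directly, so nothing is read from these counts. Without testis 1, testis 3, ovary 2 or ovary 3 the count of higher members was 0, without gland 1 or gland 3 it was 2, and without ovary 1 that of lower members was 3. With DESeq2, or with ovary and testis fitted alone, 3 members were higher. Without TMM factors 3 were lower, and with the replicate number as a block 4 were.

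Levels between members are compared per length, as TPM, in which each count is divided by the transcript length from the table before it is scaled to a total of 1000000. Mean TPM over the 6 gonad libraries ran from 14.8 to 169 with a median of 43.2. The median was 61.6 for the 2414 transcripts with the same gonad criteria and 11.9 for all tested transcripts. Within the 2414 it was 47.7 for the 1368 above 1 CPM in a gland library but not at 25 CPM in each. It was 99.0 for the 1010 with at least 25 CPM in every gland library. The 2 members with the highest minimum over the gonad libraries both had the male label. For transcript_HQ_Male_transcript5393/f4p0/1630 the TPM was 136, 159 and 190.4 in ovary 1 to 3 and 199, 181 and 148 in testis 1 to 3. It had 3 counts over the gland libraries, and as CPM it was 1982-fold higher in ovary than in gland (95% counting interval 678 to 9613) and 2454-fold higher in testis (840 to 11901). For transcript_HQ_Male_transcript1801/f7p0/2421 the TPM was 119, 151 and 151 in ovary 1 to 3 and 144, 84.7 and 130 in testis 1 to 3. It had 0 counts in gland, which as CPM was at least 2556-fold lower than ovary and at least 2375-fold lower than testis. With TMM scaling the folds over gland are smaller for both transcripts. In both, the ovary and testis libraries overlapped, with log2 ratios of CPM of -0.28 and 0.08.

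The members were steadier between ovary libraries than between testis libraries. The coefficient of variation, the SD as a percentage of the mean over 3 libraries, had a median of 10.8% in ovary and 25.8% in testis. It was higher in testis for 27 of the 36 members (75%), about the same share as the 75.6% of the 2414 transcripts with the same gonad criteria. In ovary 17 members varied by less than 10%, and the female label transcript of 1868 bases varied least, with 69.5, 67.8 and 68.1 CPM in ovary 1 to 3. In testis 5 members varied by less than 10% and 4 by more than 50%. Across the 36 members, log2 CPM correlated between ovary libraries with Pearson's r of 0.921 to 0.955, between testis libraries with 0.605 to 0.875, and between an ovary and a testis library with 0.231 to 0.587. Without testis 2 the remaining testis pair had 0.875, and ovary and testis libraries 0.42 to 0.587. These correlations are across transcripts of the same libraries and only describe them.

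Testis 2 and testis 3 differed in where the members lay. Of the 36 members, 19 were lowest in testis 2 among the testis libraries (52.8%, against 41.3% of the 2414 transcripts with the same gonad criteria), 11 in testis 1 and 6 in testis 3. The highest testis library was testis 3 for 18 members, testis 1 for 10 and testis 2 for 8 (22.2%, against 32.8% of the 2414). For testis 1 and testis 3 the shares lowest and highest were not computed for the 2414. The median log2 ratio of testis 2 to the mean of testis 1 and 3 was -0.09, beside -0.07 for the 2414, and that of testis 3 to the mean of testis 1 and 2 was 0.15, beside 0.17. That of testis 1 to the mean of testis 2 and 3 was 0.035, beside -0.15. Members and the 2414 thus lay further apart in testis 1 than in testis 2 or testis 3. The value for testis 2 depended on the selection and the scale. On CPM it was -0.50 with a gonad limit of 50 CPM and -0.25 without gland 3. It was -0.39 with TMM scaling and -0.37 with TPM, where the ratio itself was also taken on that scale. Those 2 values thus mix a change of transcripts with a change of measure. The single members ran from -1.80 to 1.73. At the low end were 3 members under 0.5 of that mean: the transcript of 3007 bases at 0.287, the female label transcript of 3050 bases at 0.295, and the male label transcript of 1170 bases at 0.369. The transcript of 3050 bases had 120, 176 and 170.1 CPM in ovary 1 to 3, against 118, 43.2 and 175 CPM in testis 1 to 3, so testis 2 was its lowest gonad library. At the other end, the female label transcript of 2231 bases had 25.02, 37.6 and 48.0 CPM in ovary 1 to 3, against 33.0, 105 and 30.2 CPM in testis 1 to 3. Its testis 2 value was 3.32 times the mean of the others, and its ovary 1 value sat at the edge of the selection.

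**Figure D4:**
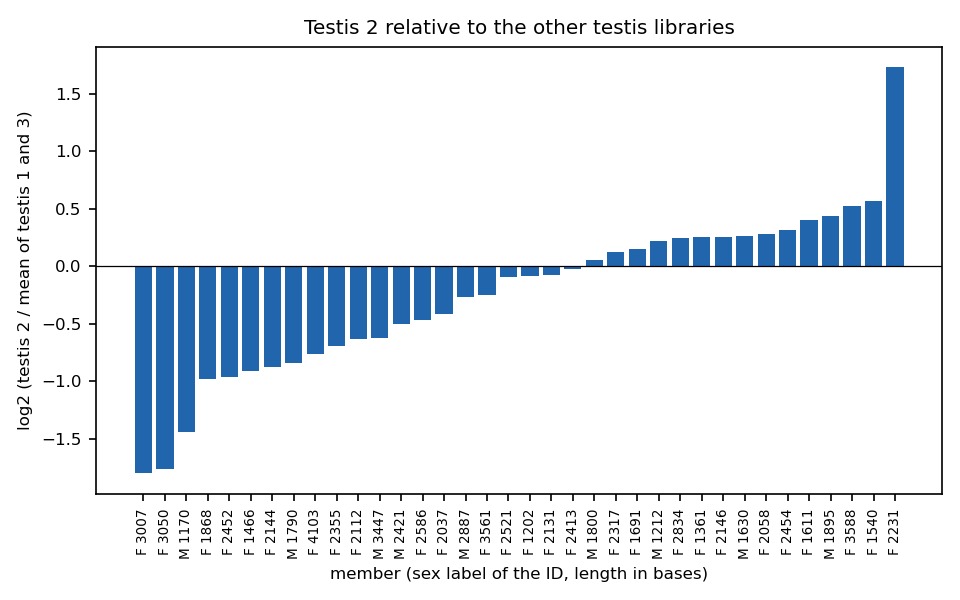
Log2 ratio of testis 2 CPM to the mean of testis 1 and 3 (vertical axis) for each of the 36 members (horizontal axis, sex label and length in bases), in rising order. Values run from -1.80 to 1.73, with 3 members at the low end and the transcript of 2231 bases alone at the high end.

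Testis 2 also decided which transcripts were chosen. It alone kept out 19 transcripts that met every other criterion, against 2 each for testis 1 and testis 3, and 6, 3 and 3 for ovary 1 to 3. Gland 1 to 3 alone kept out 15, 3 and 9. With testis 2 left out of the selection 56 transcripts passed, of which 35 were among the 36. These 56 held 0.000834% of counts in gland, 0.454% in ovary and 0.388% in testis. The lowest gonad value of a member was 25.02 CPM and the highest just below the limit 24.9 CPM. The highest gland value of a member was 0.899 CPM and the lowest just above the limit 1.04 CPM. The ratio of ovary to testis ended at 2.91 among members, with the next transcript at 4.02, and at 0.283 among members, with the next at 0.248. Of 45 transcripts with the same gonad and gland limits, 4 were left out as 4-fold or more higher in ovary and 5 as 4-fold or more lower.

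Sex label and length were not used in the selection. Of the members 27 (75%, 95% Wilson interval 58.9% to 86.2%, which covers counting error only) had the female label and 9 the male label. The female label made up 69.5% of tested transcripts and 49.96% of the 2414 with the same gonad criteria. Of these 2414, it made up 52.6% of the 1368 above 1 CPM in a gland library but not at 25 CPM in each. It made up 45.5% of the 1010 with at least 25 CPM in every gland library. The median log2 ratio of ovary to testis was 0.17 in those with the female label (15 higher in ovary, 12 lower) and 0.08 in those with the male label (5 higher, 4 lower). The shortest member had 1170 bases, the longest 4103 and the median was 2145, beside 2108 for the 2414 and 1649 for all tested transcripts. No member was under 1000 bases, against 10.7% of the 2414 and 20.4% of tested transcripts, and 23 members (63.9%) had 2000 bases or more, against 54.5% of the 2414. CPM is not divided by length, and with TPM in its place the selected transcripts had a median of 1725 bases. Of the 23 longer members 13 were lower in ovary than in testis by mean CPM, and of the 13 shorter ones 3 were, with median log2 ratios of -0.15 and 0.20. The selection limited this ratio, and the same split was not made for the 2414 or with TMM scaling, so nothing is read from it.

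The IDs hold a further field after the letter f, which in the naming of long-read isoform clustering counts the full-length reads behind a transcript, though the labels do not explain it. Its median was 3 in the members, 4 in the 2414 transcripts with the same gonad criteria and 2 in all tested transcripts. It stood at 2, the lowest value in the table, in 17 members (47.2%, against 35.1% of the 2414), and at 10 or more in 4 (11.1%, against 22.8%). The highest was 33, in the transcript of 2231 bases that was high in testis 2.

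Many of the counts carried decimals. Estimated counts can take decimals when a read that matches several transcripts is divided among them, but how they arose here is not stated and was not tested. In 10 of the 36 members every count was whole in all 9 libraries, and 26 had decimals. Of those, 25 had decimals in at least 5 libraries and were compared with each of the other 21070 transcripts. For 10 of the 25 (40%, against 38.6% of 9210 tested transcripts with as many decimals) exactly 1 other transcript had decimals that added up with the member's to a whole number, within 0.01, in all 9 libraries. For 3 more exactly 1 pair of other transcripts did so. That search was not run for transcripts outside the group, so these 3 have no background share. Those 13 members fell into 12 sets, since the female label transcripts of 2413 and 2146 bases, both members, formed 1 pair. In 6 of the 12 sets both sex labels occurred.

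Summed over a set, gland and gonad levels still met the selection in 9 of the 12 sets and missed it in 3. The clearest case was the female label transcript of 2834 bases, which had 0 counts in gland and 107, 111 and 121 CPM in ovary 1 to 3, against 77.0, 64.0 and 30.9 CPM in testis 1 to 3. Its partner, a male label transcript of 2728 bases, had 18.7, 11.6 and 22.6 CPM in gland 1 to 3, against 173, 195 and 177 CPM in ovary 1 to 3 and 5.98, 29.9 and 68.6 CPM in testis 1 to 3. The partner was highest in testis 3, where the member was lowest, and their sum of 83.0, 93.9 and 99.5 CPM in testis 1 to 3 varied by 9.15%, against 41.5% for the member alone. The sum varied less in testis for 7 of the 13 members. The set of the female label transcript of 2454 bases, 1 of those with 2 partners, reached 7.16 CPM in gland 1. The pair of 2413 and 2146 bases reached 1.34 CPM there. In 5 of the sets the sum also had 0 counts in all gland libraries. For 12 members with decimals in at least 5 libraries no such partner was found. Whether gland reads were assigned to a related transcript was not tested for any member.

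**Figure D5:**
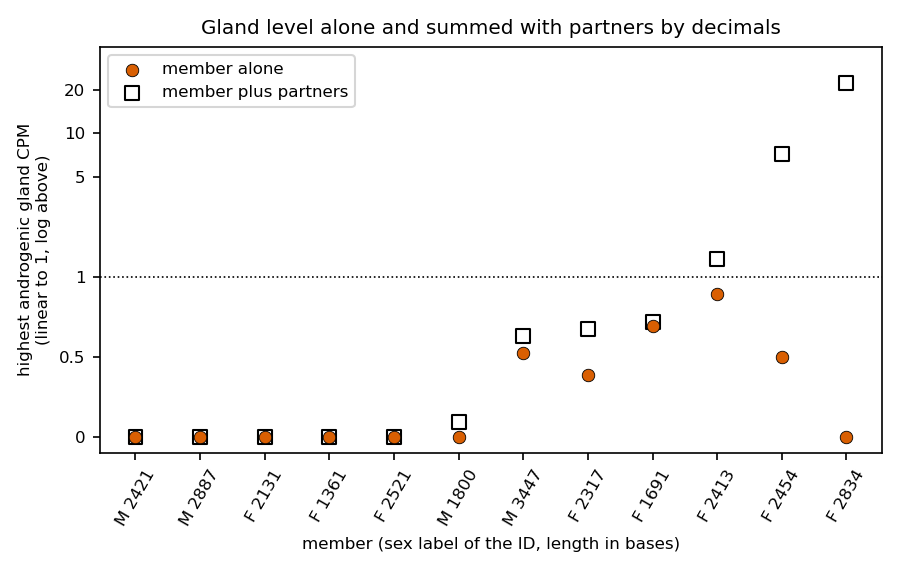
Highest androgenic gland CPM over 3 libraries (vertical axis, linear up to 1 and log above) of each member alone (filled) and summed with the transcripts whose decimals complement its own (open squares), for 12 sets (horizontal axis, sex label and length of the member). The dotted line is the gland limit of 1 CPM, which 3 sums pass, at 1.34, 7.16 and 22.6 CPM.

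The make-up of the group depended on the scale on which it was defined. With TMM scaling of the libraries 15 transcripts met the same limits, 14 of them among the 36. The gland factors were 0.528, 0.382 and 0.578 in gland 1 to 3, against 1.59, 1.48 and 1.49 in ovary 1 to 3 and 1.24, 1.27 and 1.55 in testis 1 to 3, so the same limits were harder to meet in every library. With TPM in place of CPM 32 transcripts met the limits, 17 of them among the 36.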

How the data were processed

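The values are estimated counts per transcript, as the authors deposited them with a length for each; the file headers call them read counts, and 5733 of 17043 tested transcripts are whole throughout. Bowtie 0.12.2, DESeq 1.10.1 and a mouse build are named in the submitters' processing notes, without their roles. Which tool counted, with which strand setting and against which transcripts, is not stated in them.

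CPM used column sums and TPM the deposited lengths. Rounded counts were tested with edgeR 4.0.16 (R 4.3.3): filterByExpr (minimum count 10, minimum total 15), TMM scaling, and 1 quasi-likelihood fit of 9 libraries with a mean per tissue, a prior count of 1 and 6 residual degrees of freedom. Transcripts were called where the adjusted p (Benjamini-Hochberg) was under 0.05 and the fitted change 2-fold or more. The fit was run on simulated counts as a check of the code only, which says nothing of its accuracy on these libraries. DESeq2 1.42.0 was an alternative. The pairing by replicate number was checked. Same-numbered gland and testis libraries deviated together (r 0.311 to 0.433 over 17043 transcripts). The other tissue pairs did not, with r of -0.131 to 0.00789 for ovary and testis and -0.134 to 0.00677 for gland and ovary. The pairing comes from the data, not the labels. Members and lists were chosen with earlier results of these data known. Named IDs were the 2 largest and 2 smallest ratios of ovary to testis among members whose gonads did not overlap, and the 2 with the highest minimum gonad TPM. The comparison of decimals was chosen after the values were seen. Floors (3 counts) and intervals (95%, Wilson for shares and exact Poisson for ratios) rest on library totals and cover counting error only.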

Additional observations from a re-analysis of the deposited data

How the results depend on the processing

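The number of members was 36 in the main selection. It was 15 with TMM-scaled CPM, 58 and 7 with a gonad limit of 20 and 50 CPM, 72 with a gland limit of 2 CPM, and 38 to 56 with 1 library left out, the highest without testis 2. Their share of counts followed: in ovary 0.189% with TMM scaling, 0.383% and 0.0862% with the gonad limits of 20 and 50 CPM, 0.642% and 0.238% with gland limits of 2 and 0.5 CPM, and 0.222% and 0.442% with ratio limits of 2-fold and 8-fold, with 0.300% to 0.454% when 1 library was left out, the highest without testis 2. In testis, under the same settings in the same order, it was 0.167%, 0.382%, 0.116%, 0.549%, 0.248%, 0.219% and 0.387%, with 0.291% to 0.440% when 1 library was left out, the highest without gland 1. In gland it was 0.000105% with TMM scaling, 0.00117% with TPM, 0.000836% and 9.625e-05% with the gonad limits of 20 and 50 CPM, 0.0043% and 0.000162% with the gland limits of 2 and 0.5 CPM, and 0.000544% to 0.00122% when 1 library was left out, the highest without gland 1. These shares move because each setting changes which transcripts are counted.

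The median log2 ratio of ovary to testis was -0.28 with the gonad limit of 50 CPM, in place of 0.13, and -0.037 to 0.20 with 1 library left out. The median log2 ratio of testis 2 to testis 1 and 3 was -0.39 with TMM scaling, -0.37 with TPM, -0.34 and -0.50 with gonad limits of 20 and 50 CPM, -0.26 with a gland limit of 2 CPM and -0.22 with ratio limits of 8-fold, in place of -0.09, and -0.25 to -0.081 with 1 gland or ovary library left out. With TMM scaling and with TPM this ratio was itself taken on that scale, so both the transcripts and the measure changed. The median length was 1725 bases with TPM.

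Members called higher in ovary than in testis numbered 3 when only those tissues were fitted and 3 with DESeq2, in place of 1, and 0 to 2 with 1 library left out. Members called lower numbered 3 without TMM factors, in place of 6, and 3 to 7 with 1 library left out. In this fit the median log2 fold change of ovary over testis was 0.25 for all tested transcripts without TMM factors, in place of 0.08, and 0.135 for the members, in place of -0.03. Without TMM factors 571 tested transcripts were higher and 8445 lower in gland than in testis, in place of 2730 and 4581, and 1152 were higher and 10624 lower in gland than in ovary, in place of 3428 and 6710. With the replicate block 1 member was higher and 4 were lower in ovary than in testis, and 2682 tested transcripts were higher and 4306 lower in gland than in testis. The block moved no count by more than 1.5 times. The transcript of 3007 bases was called higher in ovary when only the gonads were fitted, without gland 1 and with DESeq2, and the call of the transcript of 1540 bases was lost without testis 1, testis 3, ovary 2 or ovary 3. The cause was not tested. At these depths a gland count of 0 allows up to 0.288 CPM in a single library.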

Other observations

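Among the 630 pairs that the 36 members form, the female label transcripts of 1466 and 1868 bases kept the steadiest ratio over the 6 gonad libraries. The transcript of 1466 bases had 176, 167 and 154 CPM in ovary 1 to 3 and 148, 91.2 and 194 CPM in testis 1 to 3. The transcript of 1868 bases had 69.5, 67.8 and 68.1 CPM in ovary 1 to 3 and 62.7, 37.1 and 83.3 CPM in testis 1 to 3. The ratio of the first to the second lay between 2.26 and 2.53, a range of 0.17 on the log2 scale, against a median range of 1.74 over all pairs. Both were low in testis 2. The shorter had decimals in its counts and the longer had whole counts in every library, so they could not form a set by their decimals. The pair was picked after its values were seen. The next steadiest pair by this measure ranged from 2.64 to 3.43, and the third was the pair of 2413 and 2146 bases, which also matched by decimals, from 1.07 to 1.40.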
